A study of Danio rerio with 3 samples.

Results

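Zebrafish larvae of the AB strain were compared at 6 dpf (days post-fertilization) to find the genes that 2 opposite injections moved the same way from uninjected larvae. The 5MO library came from larvae injected as embryos with a morpholino against *atg5*, an antisense oligonucleotide that the labels call a knockdown. The library labelled 5mRNA, written 5mRNA from here on, came from larvae injected with *atg5* mRNA, which the labels call overexpression. The WT library came from untreated larvae of the same strain and age, and there was no library from larvae injected with a control morpholino. RNA was taken from larvae, pooled in WT and 5MO by the study's methods, there was 1 library per group, and nothing in the series measures how far 2 pools of the same kind differ. The act of injection, the *atg5* reagents and the particular pool of WT larvae therefore cannot be told apart, and no p-value is given.

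A gene was taken into the set when its mean RPKM (reads scaled by gene length and by the reads of the library) over the 3 libraries was at least 1, when 5MO and 5mRNA lay within 1.5-fold of each other, and when each lay at least 2-fold from WT in the same direction. All ratios were taken after adding 0.1 to the RPKM. Of 19172 named genes that reached the mean RPKM of 1, 174 met the rule, which is 0.908%. In 109 of them (0.569% of the genes tested) both injected libraries were lower than WT, and in 65 (0.339%) both were higher. These measured values chose the genes, so the levels below describe the set and test nothing. A larva is a mixture of all its tissues, and in such bulk samples fewer cells of a type and less RNA per cell cannot be told apart.

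Several of the genes belong to programmes that cells switch on within minutes or hours. Interferons are secreted when a cell senses viral or misplaced RNA or DNA, and through STAT and IRF transcription factors they turn on a large group of antiviral genes. Immediate early genes, such as those of the Fos, Jun and Nr4a families, are transcribed within minutes of almost any stimulus, and glucocorticoids, the steroid hormones of stress and fasting, act through a nuclear receptor on genes such as *fkbp5*. Injected morpholinos and mRNAs are both tools of the embryo, delivered at the first cell divisions, and the RNA here was taken days later. Whether an injection at that stage still alters these programmes days later was not tested.

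The targeted gene itself was not in the set. *atg5* on chromosome 16 (chr16:7463117-7499186, danRer10) was at 9.08 RPKM in WT, 7.69 in 5MO and 8.97 in 5mRNA. Its share of the reads was 0.847 of the WT share in 5MO, with a 95% counting interval of 0.731 to 0.980, and 0.989 of it in 5mRNA (0.861 to 1.14). The library labelled as overexpression thus held no more *atg5* RNA than WT at 6 dpf. A morpholino can act without lowering its transcript, so the level in 5MO checks that label only in part. These intervals, and all below, were computed from reads recovered from the steps of the RPKM values. They cover counting error alone, since the difference between pools was not measured. Reads copied by PCR are not independent molecules, so the intervals can be too narrow even for that.

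The 3 libraries were alike in size. The aligner took 27492652 to 31140490 read pairs per library and placed 87.63% to 87.88% of them at a single position, and the RPKM values rest on 19502144 to 21857365 reads. Genes of skeletal muscle, lens, photoreceptors, skin, liver, exocrine pancreas and intestine were all present, as whole larvae should have them. Muscle genes summed to 73105.8 to 74234.1 RPKM and skin keratins to 7872.4 to 8510.2 RPKM, a spread of less than 1.5-fold between libraries. Genes of the exocrine pancreas summed to 8007.9 to 10551.5 RPKM, and liver genes to 3473.9 to 5116.2 RPKM, lowest in WT.

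**Figure D1:**
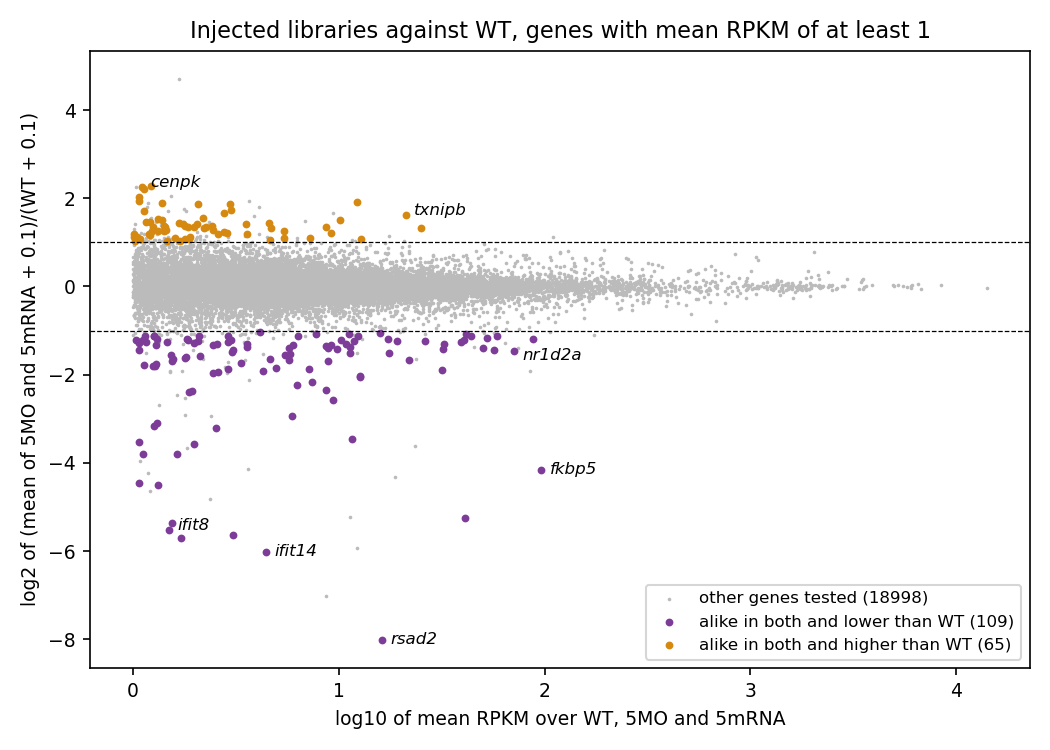
Mean RPKM over the 3 libraries (log10, horizontal) against the log2 ratio of the injected mean to WT (vertical) for 19172 genes, 1 point per gene, with dashed lines at 2-fold. The 109 genes that met the rule on the lower side reach log2 -8.01 (*rsad2*), whereas the 65 on the higher side stop at 2.27 (*si:dkey-58f10.12* and *cenpk*) and sit mostly at low mean RPKM.

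The rule takes genes that are high in WT on one side and low in WT on the other, and the levels and folds of the 2 sides follow in part from that. Folds on the lower side ran from 2.04 to 258 with a median of 2.77, and those on the higher side from 2.03 to 4.82 with a median of 2.53. At least 4-fold differences were seen for 27 lower and 4 higher genes, and at least 8-fold differences for 18 lower and 0 higher genes. The lower genes had a median WT level of 8.55 RPKM. The higher genes had a median of 0.871 RPKM in WT, and 38 of the 65 were under 1 RPKM there, so that they entered the comparison only through the injected libraries. In the same way 35 of the 109 lower genes had an injected mean under 1 RPKM. Clone-type or locus names made up 33.9% of the lower and 52.3% of the higher genes, beside 20.8% of all genes tested. Protein-coding genes were 88.1% of the lower, 78.5% of the higher and 92.2% of all genes tested.

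The plot of all genes shows the long tail below the line of no difference. At 1.5-fold in place of 2-fold, 329 genes were lower (1.72% of the genes tested) and 351 were higher (1.83%).

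Antiviral genes of the interferon response were frequent in the long tail. Of 37 interferon effector genes tested, 11 were in the set and all 11 were lower (29.7%, beside 0.569% of all genes). Most of the 11 were under 1 RPKM in both injected libraries and entered the comparison only through WT. This list and those below were written with earlier results of these data known, so their shares describe and test nothing. Another 6 passed 2-fold on the lower side in each injected library but differed by more than 1.5-fold between them. By any amount, 32 of the 37 were lower in both injected libraries and 3 were higher in both, whereas 29.9% and 31.9% of all genes tested fell in those classes. The median of the list was log2 -0.85, beside 0.01 for all genes tested.

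*rsad2*, which encodes the antiviral radical-SAM enzyme viperin, had the largest ratio of the whole set. It stood at 48.7 RPKM in WT, 0.121 in 5MO and 0.0564 in 5mRNA. These values rest on 1540, 4 and 2 reads. The WT library was therefore the only one of the 3 with more than a handful of reads. With 0.1 added, the injected mean was 258-fold lower, and at so few reads that fold depends on the added value. Without it, 5MO and 5mRNA would be more than 1.5-fold apart for *rsad2*. The same holds for other genes of the set near 0 in the injected libraries, among them *ifit14* and *mxb*. The read share was 0.00250 of WT in 5MO (0.000679 to 0.00640) and 0.00116 in 5mRNA (0.000140 to 0.00419).

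Genes of the Ifit family, whose proteins bind foreign RNA in mammals, were also near 0 in the injected libraries. *ifit14* was at 13.1 RPKM in WT, 0.0728 in 5MO and 0.135 in 5mRNA. *ifit8* was at 4.49 RPKM from 187 reads in WT and was not seen in either injected library. With 3 reads allowed for each library at 0, *ifit8* was at least 64.9-fold lower in 5MO and at least 69.9-fold lower in 5mRNA. The related *ifit15* had 25.9, 0.0524 and 0.146 RPKM, so it was low in both injected libraries as well, but at these few reads its values differed by 1.61-fold from each other and it did not meet the rule. *ifit16*, which overlaps *ifit14* over 1196 bases on the same strand, was at 2.37, 0.929 and 1.61 RPKM, within 1.5-fold of WT in 5mRNA on the scale used.

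Other effectors were lower by smaller ratios. *mxb*, a dynamin-like GTPase of the Mx family, was at 3.11 RPKM in WT, 0.0324 in 5MO and 0.0603 in 5mRNA. Its neighbour *mxa* overlaps it over 7612 bases of the same strand and was too low to be tested, at 2.09, 0.0197 and 0.183 RPKM, so reads of the pair could have been shared between them. *gig2e*, of a fish gene family named for its induction by a reovirus of grass carp, was at 5.24, 0.414 and 0.284 RPKM. The helicase gene *helz2* was at 3.33, 0.255 and 0.347 RPKM. *usp18*, whose product takes the ubiquitin-like Isg15 off proteins, was at 4.19, 0.588 and 0.847 RPKM. *xaf1*, named for its binding to an inhibitor of apoptosis, was at 5.20, 1.28 and 1.27 RPKM. *parp12a* had 3.33, 1.06 and 1.53 RPKM, the smallest ratio of the 11. All of these genes but *mxa* were in the set, so that WT stood clear of both injected libraries followed from the rule.

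The sensors that detect viral RNA inside the cell were among the 11. *dhx58*, which encodes the RIG-I-like receptor Lgp2, was at 6.40 RPKM in WT, 0.725 in 5MO and 0.486 in 5mRNA. *ifih1*, which encodes the sensor Mda5, was at 2.25, 0.609 and 0.549 RPKM. Downstream of such sensors, the adaptor gene *mavs* went the other way by a smaller amount and outside the rule, at 3.89, 5.84 and 5.72 RPKM in the same order.

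The 6 effectors past 2-fold on the lower side in each library without being alike were *ifit15*, *cmpk2*, *gig2l*, *isg15*, *mxe* and *pkz*. *isg15*, the ubiquitin-like modifier, had the highest level of them, with 51.3 RPKM in WT, 3.28 in 5MO and 1.64 in 5mRNA. *cmpk2*, a nucleotide kinase gene that lies beside *rsad2* on chromosome 17, was at 6.83, 0.0393 and 0.255 RPKM. The double-stranded nucleic acid sensor kinase *pkz* was at 4.92, 0.173 and 0.414 RPKM. They missed the rule because the injected libraries differed from each other, by 1.61-fold to 2.55-fold, at read numbers of 0 to 76.

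**Figure D2:**
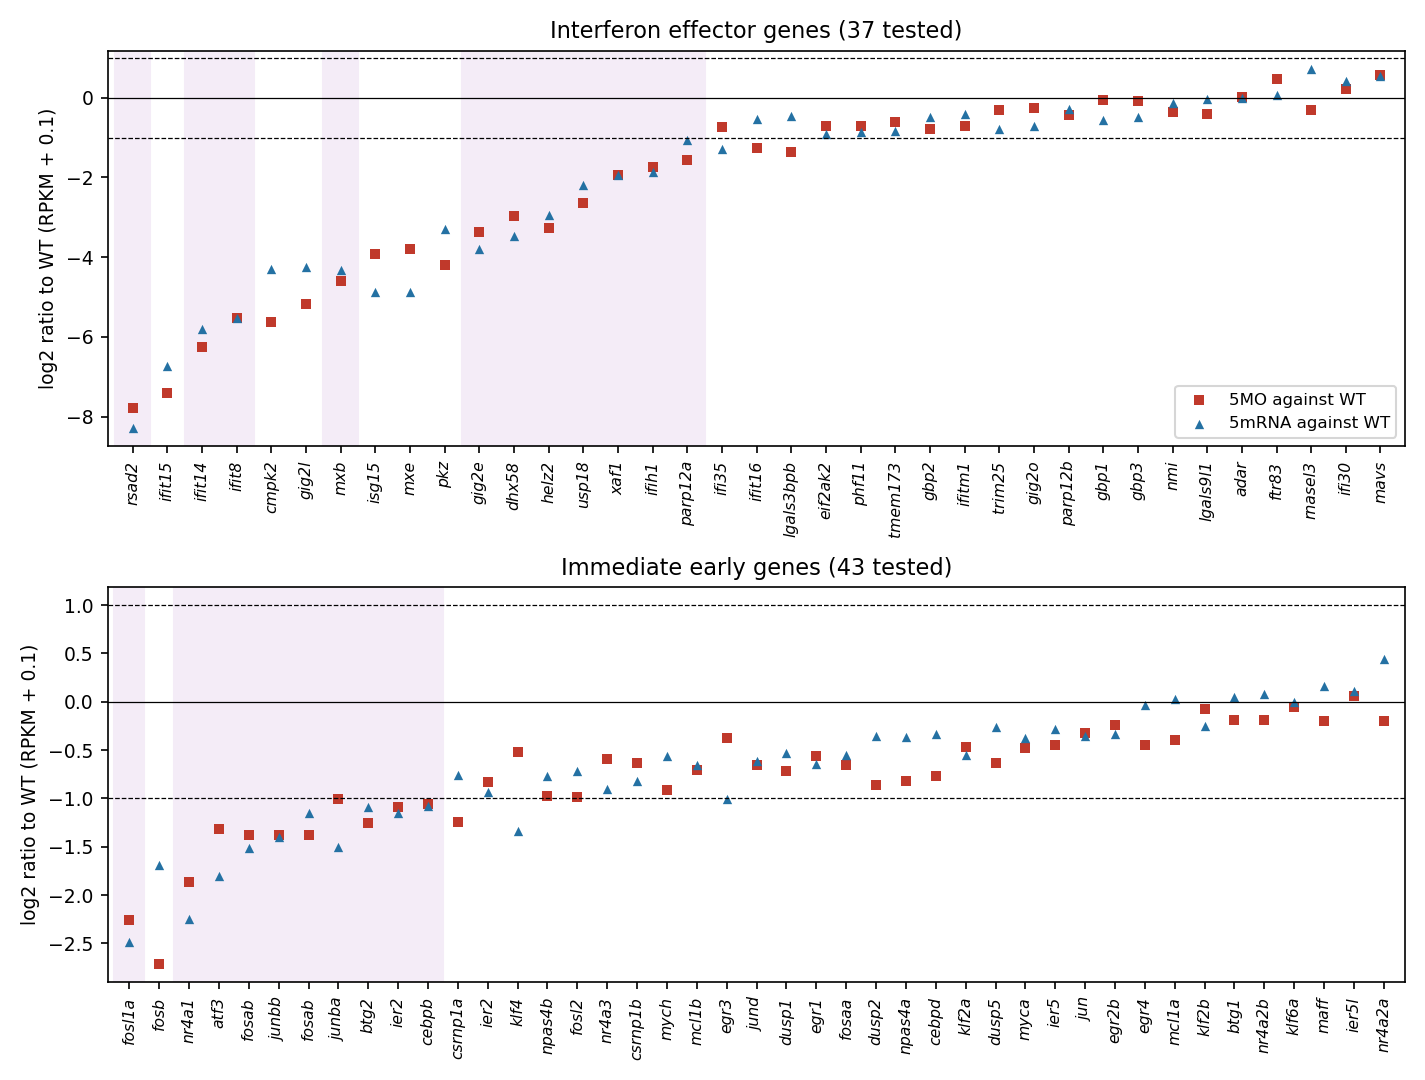
Log2 ratio to WT of RPKM + 0.1 for each gene of 2 lists, 1 square per gene for 5MO and 1 triangle for 5mRNA, ordered by the ratio of the injected mean, with dashed lines at 2-fold and shading on genes that met the rule. The left end of the interferon list lies more than 2-fold below WT in both libraries, down to *rsad2*. The immediate early genes rise from left to right along a shallow slope with 10 shaded rows, both *fosab* rows included.

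Among the regulators of the pathway, 2 of 24 tested were in the set, both lower (8.33%, beside 0.569% of all genes). By any amount 12 of the 24 were lower in both injected libraries and 5 were higher in both, beside 29.9% and 31.9% of all genes. *irf7*, the transcription factor that amplifies interferon production, was at 13.3 RPKM in WT, 2.84 in 5MO and 2.64 in 5mRNA. Its read share was 0.214 of WT in 5MO (0.166 to 0.273) and 0.199 in 5mRNA (0.154 to 0.254). *irf3*, which acts first after a sensor is engaged, was at 2.15, 0.875 and 0.910 RPKM. *stat1b*, a transducer of the interferon receptors, was at 9.93, 0.656 and 0.279 RPKM and *irf10* at 3.09, 1.21 and 0.254 RPKM, both at least 2-fold lower in each library but not alike. The kinase genes *jak1*, at 24.5, 21.8 and 24.05 RPKM, and *tyk2*, at 2.04, 1.93 and 2.21 RPKM, stayed within 1.5-fold of WT. The list median was log2 -0.23.

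Further interferon-related genes carry clone names in the deposited table and were recognised, after their values were seen, from synonyms in a RefSeq gene table (assembly GRCz12tu). A row of 7 isg12 genes, which RefSeq calls *ifi27*, lies on chromosome 13 between 37480006 and 37530800 (danRer10), all on the same strand. In mammals *IFI27* is strongly induced by type I interferon. The 2 in the set were *si:dkey-188i13.6* (*ifi27.3*), with 14.01 RPKM in WT, 3.91 in 5MO and 3.63 in 5mRNA, together with *si:dkey-188i13.7* (*ifi27.4*), with 18.7, 3.82 and 3.34 RPKM.

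The other 5 isg12 genes fell into 2 kinds. *zgc:152791* (*ifi27.2*) was at 35.8, 0.360 and 0.612 RPKM, *zgc:123068* (*ifi27.1*) at 60.7, 6.87 and 2.83 RPKM and *si:dkey-188i13.9* (*ifi27.6*) at 32.3, 1.18 and 0.342 RPKM, all far below WT in both libraries but more than 1.5-fold apart from each other. *si:dkey-188i13.10* (*ifi27.7*) was at 11.998, 8.31 and 9.43 RPKM and *si:dkey-188i13.11* (*ifi27.8*) at 30.97, 20.7 and 20.8 RPKM, less than 2-fold below WT. The last pair lies at one end of the row and the lower 5 at the other. The copies resemble one another, and the counting tool is not given in the sources used here, so reads could have been shared among them.

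Immune genes outside the interferon lists gave single values. *ccl19b*, which encodes a chemokine that guides lymphocytes and dendritic cells, was at 21.05 RPKM in WT, 3.31 in 5MO and 3.63 in 5mRNA. *tapbp.2*, a tapasin gene of class I antigen loading, was the only one of 18 antigen processing genes in the set, at 2.45, 1.101 and 0.829 RPKM. *mov10b.1*, an RNA helicase gene, was at 8.55, 2.16 and 2.19 RPKM. *ftr56* was the only one of 13 finTRIM genes, at 1.83, 0.768 and 0.818 RPKM. These single genes were 5.56% of the antigen processing list and 7.69% of the finTRIM list, beside 0.569% of all genes on the lower side. *itln3*, which encodes the sugar-binding protein intelectin, was at 3.09, 0.0900 and 0.167 RPKM.

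Markers of white blood cells moved in both directions. None of 16 neutrophil genes and none of 23 macrophage and leukocyte genes tested was in the set, with list medians of log2 0.05 and 0.02. Beside 0.908% of all genes tested, none in lists of this size is near the share over all genes. Taken alone, 5MO had medians of log2 -0.01 and 0.15 and 5mRNA of -0.11 and -0.06 for these lists. Of the neutrophil list, 25 genes are in the table, and their tested members summed to 403.6 RPKM in WT, 371.5 in 5MO and 360.7 in 5mRNA. Of the macrophage and leukocyte list, 36 are in the table and the sums were 666.1, 695.3 and 685.7 RPKM. The T cell gene *cd8a* was at 0 in every library. Of the defining markers, the macrophage gene *mpeg1.1* was at 2.38, 1.94 and 1.54 RPKM, and the neutrophil genes *mpx*, at 1.49, 3.43 and 2.82 RPKM, and *lyz*, at 23.98, 36.4 and 38.4 RPKM, were higher in the injected libraries. *lect2l*, of the same list, was at 43.3, 10.1 and 17.6 RPKM, more than 2-fold below WT in each injected library but not alike. By any amount 6 of the 16 neutrophil genes were lower in both injected libraries and 5 were higher in both, and of the 23 macrophage and leukocyte genes 5 were lower and 8 higher. The part of such cells in the values of the immune genes was not tested.

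**Figure D3:**
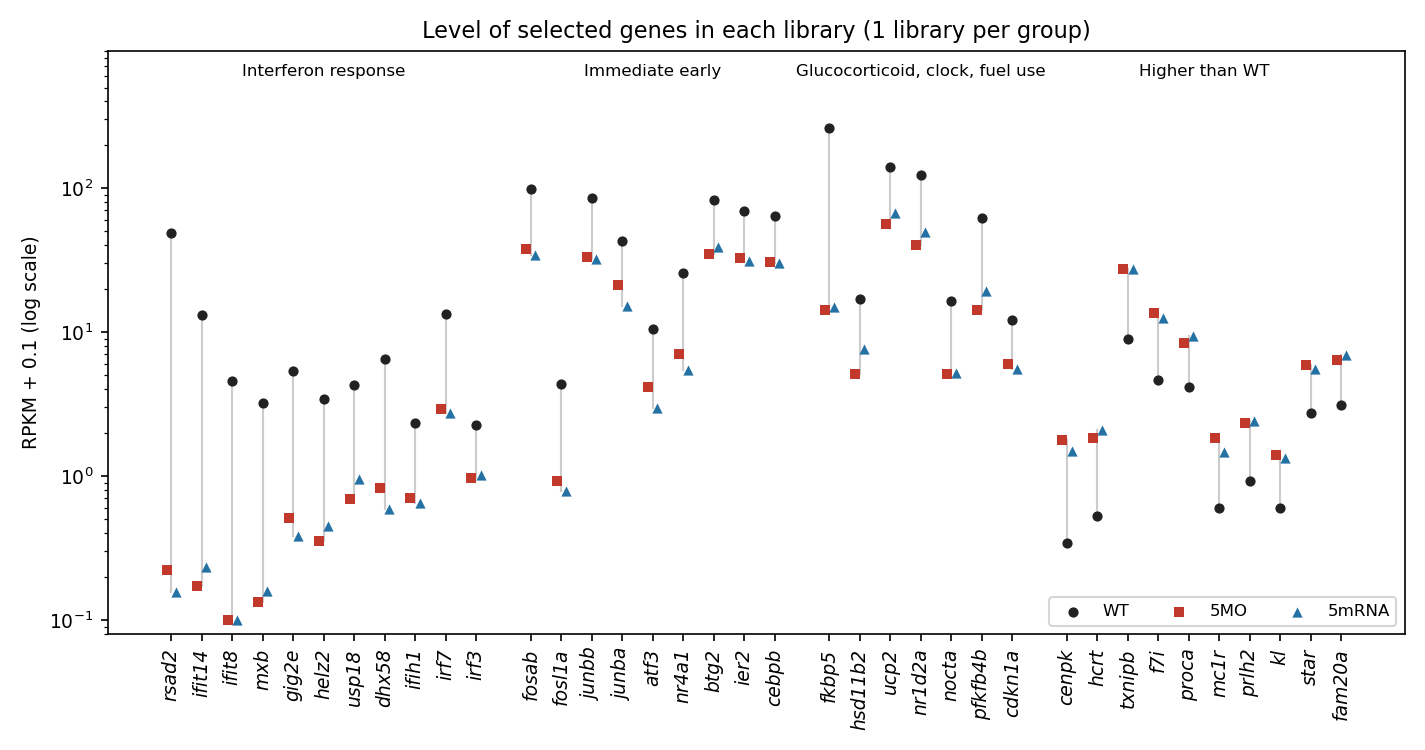
RPKM + 0.1 on a log scale for 37 genes of the set in each library (circle WT, square 5MO, triangle 5mRNA), grouped by role, with a grey line over the range of each gene. That the 2 injected libraries lie close together and on one side of WT follows from the rule. In the interferon group the injected mean is from 258-fold (*rsad2*) to 2.27-fold (*irf3*) below WT. For *fkbp5* it is 17.8-fold below, and the last group lies above WT.

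Immediate early genes formed the other large group. Of 43 rows tested, 10 were in the set, all lower (23.3%, beside 0.569% of all genes). The list median was log2 -0.63, and 37 of the 43 rows were lower in both injected libraries by any amount, with 1 higher in both. Unlike the interferon genes, most of these had more than a few RPKM in every library, and the folds were small.

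The Fos and Jun genes encode the subunits of the AP-1 transcription factor. *fosab* was at 98.2 RPKM in WT, 37.8 in 5MO and 34.4 in 5mRNA. A second row with the symbol *fosab*, on the opposite strand within the first, had 64.0, 24.5 and 28.9 RPKM. The library kit does not mark the strand, so these 2 rows cannot be told apart and count as 1 locus. *junbb* was at 85.5, 32.9 and 32.3 RPKM, a read share of 0.385 of WT in 5MO (0.357 to 0.415) and 0.377 in 5mRNA (0.350 to 0.407). *junba* was at 42.7, 21.3 and 15.02 RPKM. *fosl1a* had the largest ratio of the list at a low level, with 4.29, 0.820 and 0.683 RPKM. The paralogue *fosb* was at 7.59, 1.07 and 2.28 RPKM and was not alike in the injected libraries.

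Partners and further stimulus genes were lower too. *atf3*, a stress-responsive partner of Jun, was at 10.3 RPKM in WT, 4.09 in 5MO and 2.88 in 5mRNA. *nr4a1*, an orphan nuclear receptor gene, was at 25.5, 6.95 and 5.31 RPKM. *btg2*, an antiproliferative gene, was at 83.0, 34.7 and 38.9 RPKM. *cebpb*, a transcription factor gene of inflammation and metabolism, was at 64.0, 30.7 and 30.2 RPKM. *ier2* on chromosome 11 was at 68.9, 32.4 and 30.9 RPKM, and the second row of that name on chromosome 3 was at 73.3, 41.1 and 38.3 RPKM, just short of 2-fold. *btg2* overlaps *cry1bb* and *ier2* overlaps *stx10* on the opposite strand, but *cry1bb* was at 21.9, 16.5 and 21.8 RPKM and *stx10* at 5.56, 4.65 and 4.84 RPKM, neither 2-fold from WT.

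Of the 43 rows tested, 29 lay within 2-fold of WT in both injected libraries. *egr1*, a zinc finger transcription factor gene, was at 58.8 RPKM in WT, 39.8 in 5MO and 37.7 in 5mRNA, *jun* at 86.5, 68.9 and 67.6 RPKM, and the phosphatase gene *dusp1* at 143.6, 87.1 and 99.8 RPKM. At 1.5-fold, 18 of the 43 rows were lower and alike and 0 were higher, beside 1.72% and 1.83% of all genes.

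Further genes of the set known as stimulus-responsive stand outside the list. They were picked from the lower side after their values were seen, so their direction was fixed by the choice. *sik1*, a kinase gene induced by cyclic AMP, was at 65.6 RPKM in WT, 29.5 in 5MO and 26.7 in 5mRNA. *ptgs2b*, a cyclooxygenase gene of prostaglandin synthesis, was at 3.87, 1.45 and 1.04 RPKM. *rgs2*, a brake on G protein signalling, was at 9.89, 4.099 and 3.26 RPKM. *jdp2b*, whose product pairs with Jun proteins, was at 18.1, 7.15 and 7.32 RPKM. The p53 target and cell cycle inhibitor *cdkn1a* was at 12.01, 5.87 and 5.45 RPKM, the only one of 31 p53 and apoptosis genes in the set. That is 3.23%, beside 0.569% of all genes on the lower side.

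*fkbp5* had the highest WT level of the set and the largest difference in RPKM. It encodes a co-chaperone that holds the glucocorticoid receptor in its low-affinity state and is itself a target of that receptor. On chromosome 6 (chr6:41098522-41118517, danRer10) it stood at 260.2 RPKM in WT, 14.1 in 5MO and 14.8 in 5mRNA, from 8956, 507 and 572 reads. The read share was 0.0544 of WT in 5MO (0.0496 to 0.0595) and 0.0570 in 5mRNA (0.0523 to 0.0620), so the intervals of the injected libraries overlapped, and the injected mean was 17.8-fold below WT. The row of *srsf3a* that lies 4877 bases away on the other strand was also in the set, at 3.24, 0.283 and 0.263 RPKM. That row rests on 11, 1 and 1 reads. A further *srsf3a* row nearby, with 62, 53 and 52 reads, was at 3.21, 2.64 and 2.41 RPKM, within 1.5-fold of WT.

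Other genes of glucocorticoid action and fasting varied more. The list of such genes, *fkbp5* included, had 39 tested and 3 in the set, all lower (7.69%, beside 0.569% of all genes). They were *fkbp5*, *hsd11b2* and *ucp2*, and the list median was log2 -0.11. *hsd11b2*, whose enzyme inactivates cortisol, was at 16.8 RPKM in WT, 5.04 in 5MO and 7.52 in 5mRNA. *klf9*, a glucocorticoid-induced transcription factor gene, was at 166.8, 30.6 and 56.9 RPKM, well below WT in both, but 1.86-fold apart between them. *pck1*, the gluconeogenic enzyme gene, was at 941.2, 509.9 and 582.9 RPKM, and *tsc22d3*, another receptor target, at 73.0, 44.3 and 59.5 RPKM, both short of 2-fold. The receptor gene *nr3c1* was at 27.2, 27.5 and 33.1 RPKM and *igfbp1a*, a hormone-responsive liver gene, at 114.6, 128.5 and 148.0 RPKM, not lower.

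Genes of fuel use on the lower side included *ucp2*, *pfkfb4b*, *nocta* and *slc25a25a*, grouped here after their values were seen. Others went the other way, among them *txnipb*, given below, and *ppp1r3ca*, at 1.42 RPKM in WT, 3.79 in 5MO and 3.12 in 5mRNA. *ucp2*, a mitochondrial carrier gene, was at 139.7 RPKM in WT, 55.9 in 5MO and 66.7 in 5mRNA. It shares 10742 bases of one strand with *ucp3*, which was at 92.4, 34.8 and 49.0 RPKM, and 117 bases with *dnajb13*, a member of the set at 15.4, 5.02 and 7.08 RPKM, so these 3 rows are not independent. *pfkfb4b*, which sets the level of a glycolysis activator, was at 62.0, 14.1 and 19.2 RPKM. *slc25a25a*, a mitochondrial nucleotide carrier gene, was at 40.5, 10.6 and 14.8 RPKM. *nocta*, the gene of the rhythmic phosphatase nocturnin, was at 16.4, 4.98 and 5.09 RPKM.

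The circadian clock list held 1 gene of the set among 44 tested (2.27%, beside 0.569% of all genes on the lower side). *nr1d2a*, a Rev-erb repressor of the clock, was at 123.7 RPKM in WT, 39.9 in 5MO and 49.4 in 5mRNA, a read share of 0.323 (0.307 to 0.339) and 0.399 (0.382 to 0.417). Another Rev-erb gene, *nr1d1*, was at 106.7, 61.4 and 68.3 RPKM, and the Period gene *per1a* at 23.0, 11.5 and 12.6 RPKM. Each was lower by less than 2-fold in both libraries. By any amount 29 of the 44 clock genes were lower in both injected libraries and 4 were higher in both, beside 29.9% and 31.9% of all genes. The core activators *arntl1b*, at 9.36, 11.3 and 11.2 RPKM, and *clockb*, at 21.2, 21.8 and 24.6 RPKM, were not among the lower ones.

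Genes of vitamin D and phosphate handling appeared on both sides. *cyp2r1*, whose enzyme adds the hydroxyl group of circulating vitamin D, was at 4.93 RPKM in WT, 1.002 in 5MO and 1.395 in 5mRNA. *cyp27b1*, whose enzyme makes the active hormone, was at 1.83, 0.667 and 0.719 RPKM. The phosphate carrier gene *slc34a2a* was at 20.1, 6.14 and 7.82 RPKM. Higher than WT was *kl*, the gene of the Fgf23 co-receptor Klotho, at 0.49995, 1.31 and 1.24 RPKM. *cyp24a1*, which encodes the enzyme that degrades the hormone and was not in the set, was at 75.8, 101.2 and 140.1 RPKM, and the receptor gene *vdra* was at 23.0, 14.99 and 18.99 RPKM. *cyp2r1* overlaps *calca* and *cyp27b1* overlaps *isy1* on the opposite strand over 16403 and 6676 bases, with *calca* at 15.1, 12.2 and 9.80 RPKM and *isy1* at 6.61, 8.62 and 6.67 RPKM. With *slc34a2a* and *cyp27b1*, 2 of 29 ionocyte and mineral genes were in the set (6.90%, beside 0.569% of all genes on the lower side).

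Transport genes of gut and kidney gave a further pair. *slc6a19a.1*, a carrier of neutral amino acids, was at 15.2 RPKM in WT, 5.18 in 5MO and 6.24 in 5mRNA. *slc10a2*, the bile acid carrier of the ileum, was at 17.3, 8.08 and 8.33 RPKM. They were the only 2 of 40 intestinal genes in the set (5%, beside 0.569% of all genes on the lower side). The summed level of that list was 3481.7, 3760.8 and 3521.5 RPKM.

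The lower side also held genes without a common role. *LOC100535167*, a noncoding RNA on chromosome 18, was the second highest by WT level among genes with at least 8-fold differences, at 117.1 RPKM in WT, 2.40 in 5MO and 3.53 in 5mRNA. A row named *si:dkeyp-1h4.6* that lies 4091 bases away on the same strand was at 14.6, 6.11 and 5.16 RPKM. *foxg1b*, a forkhead transcription factor gene, was at 54.0, 19.3 and 24.3 RPKM. *prelid3b*, a mitochondrial lipid transfer gene, was at 91.2, 44.9 and 39.3 RPKM. *serpina7*, whose product carries thyroid hormone in mammals, was at 6.38, 1.89 and 1.82 RPKM, the only one of the liver list at least 2-fold below WT in each injected library. *esr2b*, an estrogen receptor gene, was at 3.06, 1.32 and 1.199 RPKM and *tph1b*, a serotonin synthesis gene, at 2.03, 0.952 and 0.8001 RPKM. *aste1*, a gene named for an asteroid homologue of the fly, was at 4.47, 0.255 and 0.203 RPKM. *si:ch211-276k2.2* was at 9.03, 0.0578 and 0.107 RPKM. *si:dkey-161l11.72* rests on 1 read in WT over a row 10 bases long, and no ratio is given for it.

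The 65 higher genes had few known roles in common. The largest ratios belonged to *si:dkey-58f10.12*, at 0.272 RPKM in WT, 1.83 in 5MO and 1.56 in 5mRNA, followed by *cenpk*, a centromere gene, at 0.242, 1.68 and 1.403 RPKM. Next came *si:dkey-208m12.2*, at 0.256, 1.29 and 1.83 RPKM, *HINT2*, named for a histidine triad nucleotide-binding protein, at 0.280, 1.34 and 1.58 RPKM, and a further clone-named row, at 0.302, 1.34 and 1.56 RPKM. *cenpk* had 4, 29 and 26 reads, so that its read share was 6.96 times WT in 5MO with an interval of 2.45 to 27.3. *hcrt*, the gene of the wake-promoting neuropeptide hypocretin, was at 0.425, 1.73 and 1.99 RPKM from 4, 17 and 21 reads. *rpph1*, the RNA of ribonuclease P, was at 0.677, 3.25 and 2.26 RPKM. Such low genes have wide intervals, and for 59 of the 65 both intervals lay above 1, beside 106 of the 109 lower genes with both below 1. The reads behind the intervals also chose the genes, so intervals off 1 followed in large part from the rule.

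Of the higher genes, 10 had a mean of at least 5 RPKM. *txnipb*, whose product binds thioredoxin and restrains glucose uptake in mammals, was at 8.87 RPKM in WT, 27.4 in 5MO and 27.4 in 5mRNA, from 342, 1101 and 1183 reads. The read share was 3.09 times WT in 5MO (2.74 to 3.50) and 3.09 times in 5mRNA (2.73 to 3.49). *CT956057.1*, a row that overlaps *dpp7* on the opposite strand, was at 4.22, 14.6 and 18.1 RPKM. The kinase-like gene *fam20a*, needed for tooth enamel in mammals, was at 3.002, 6.35 and 6.81 RPKM. At a slightly lower mean, *tymp*, a nucleoside phosphorylase gene, was at 2.30, 5.90 and 5.91 RPKM.

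Liver-made proteins of blood clotting were on the higher side. *f7i*, a homologue of coagulation factor VII, was at 4.52 RPKM in WT, 13.5 in 5MO and 12.5 in 5mRNA. *proca*, protein C, was at 4.08, 8.35 and 9.32 RPKM. The annotated span of *f7i* overlaps *f10* over 6567 bases of the same strand, and *f10* was at 14.6, 23.4 and 27.6 RPKM, so reads could have been shared between them. *f7i* was the only higher gene of the set among 34 liver genes (2.94%, beside 0.339% of all genes). The list median was log2 0.63, beside 0.01 for all genes. By any amount 31 of the 34 were higher in both injected libraries, beside 31.9% of all genes. At 1.5-fold, 12 of them were higher and alike, beside 1.83% of all genes, and 1 lower. Their summed level was 3473.9 RPKM in WT, 4973.2 in 5MO and 5116.2 in 5mRNA. Complement and acute phase genes, also made by the liver, had 0 of 37 listed genes in the set, beside 0.908% of all genes tested. Their median was log2 0.51. That list did not hold *cfhl5*, a gene named for complement factor H, which was in the set on the higher side. Its levels were 0.860, 2.36 and 2.30 RPKM in the same order, so it was under 1 RPKM in WT.

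Signalling genes of the brain and of development made up another part. *prlh2*, a prolactin-releasing hormone gene, was at 0.823 RPKM in WT, 2.24 in 5MO and 2.32 in 5mRNA. *rxfp3*, a relaxin family receptor gene, was at 0.594, 1.43 and 1.56 RPKM and *cbln8*, of the synapse-organising cerebellins, at 1.06, 2.51 and 3.22 RPKM. *mc1r*, the melanocortin receptor gene of pigment cells, was at 0.502, 1.74 and 1.38 RPKM. The Bmp ligand gene *gdf6a* was at 0.871, 2.01 and 1.93 RPKM, and *bmper*, whose product binds Bmps outside the cell, at 0.988, 2.17 and 2.21 RPKM. *star*, whose product brings cholesterol into mitochondria for steroid synthesis, was at 2.63, 5.77 and 5.44 RPKM. *hcrt* was the only gene of the set among 37 on the neuropeptide and hormone list (2.70%), which did not hold *prlh2*. *mc1r* was the only one of 25 genes on the pigment list (4%). *hcrt*, *prlh2* and *mc1r* were all under 1 RPKM in WT and entered the comparison only through the injected libraries. Of all genes tested 0.339% were in the set on the higher side.

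**Figure D4:**
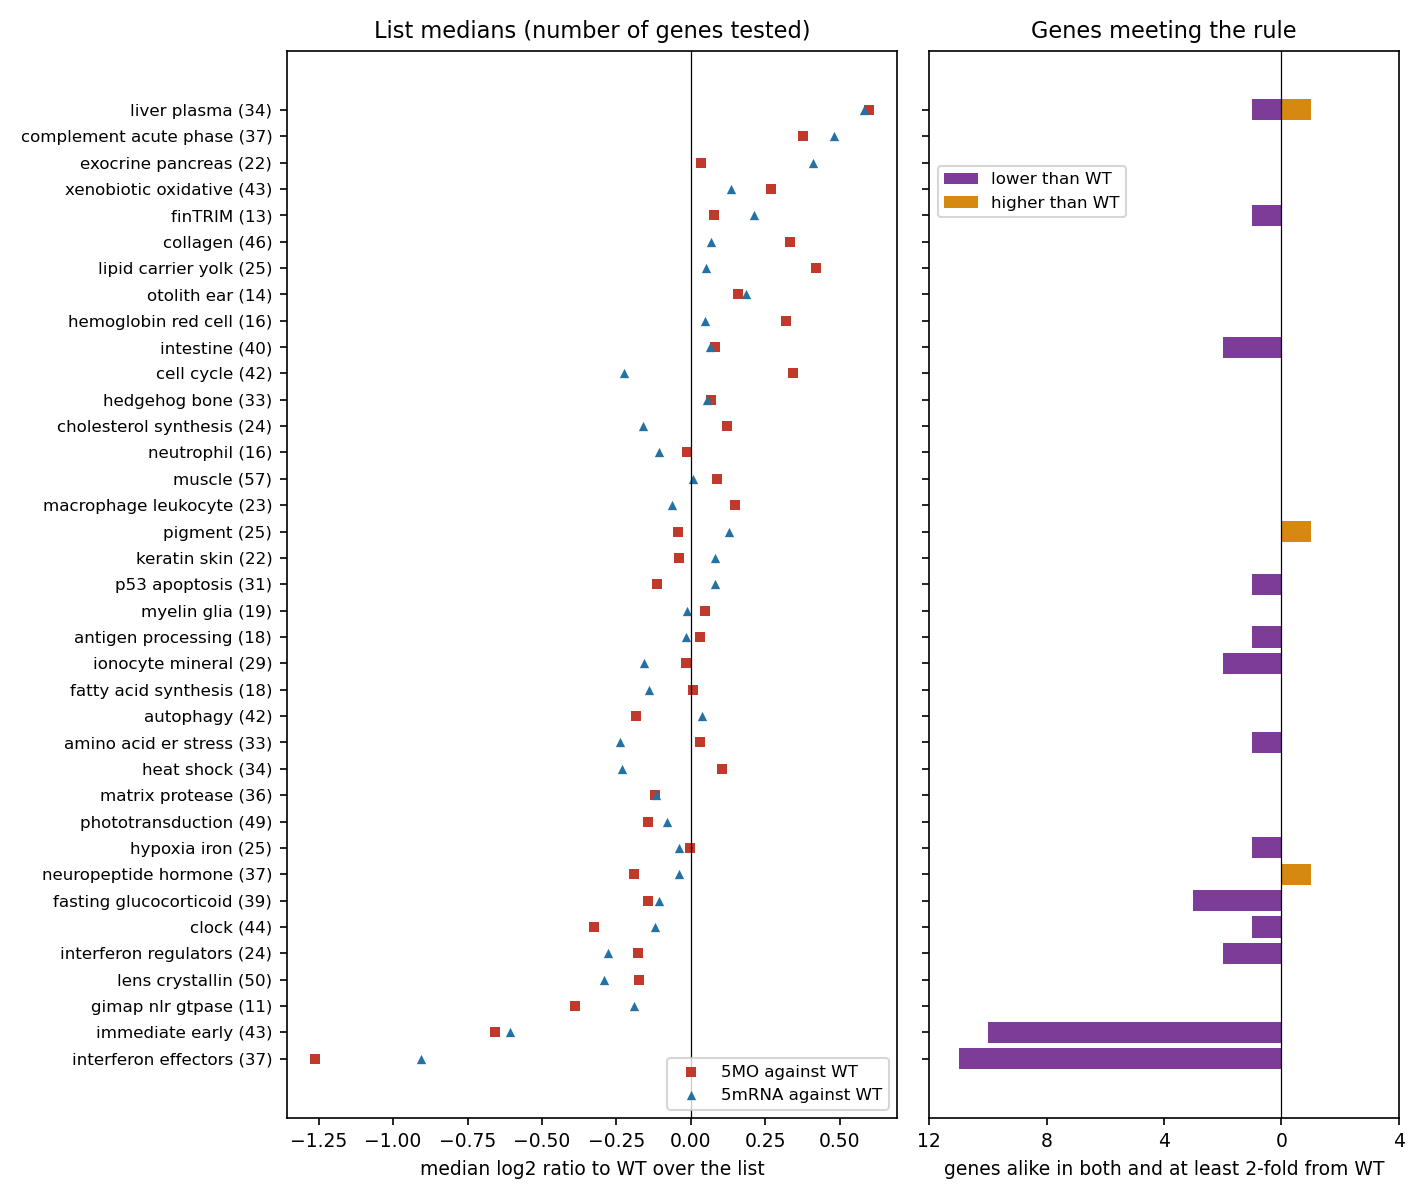
Left, median log2 ratio to WT for each of 37 gene lists (square 5MO, triangle 5mRNA; number of genes tested in brackets); right, number of genes of each list that met the rule, lower to the left and higher to the right. The interferon effector and immediate early lists stand at the bottom, with 11 lower genes and 10 lower rows (both *fosab* rows counted). The liver list stands at the top with both medians near 0.6 and 1 gene on each side.

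Most of the lists had no gene in the set. Matched by the deposited symbols, 22 of 37 lists held none and 3 held at least 3. These 3 were interferon effectors, immediate early genes and genes of fasting and glucocorticoids. The lists closest to the study's subject were among the empty ones, with 0 of 42 autophagy genes (median log2 -0.05) and 0 of 33 hedgehog and bone genes (0.10). Of all genes tested 0.908% were in the set, so none in a list of this size is near that share. By deposited symbol, muscle (57 tested), lens (50), photoreceptor (49), cell cycle (42), collagen (46) and heat shock (34) lists had none either. However, *zgc:112320*, at 5.38 RPKM in WT, 1.94 in 5MO and 1.76 in 5mRNA, was in the set on the lower side. RefSeq calls it *pde6ga*, a symbol of the photoreceptor list, so under its clone name it was not counted there. By any amount, genes lower and higher in both injected libraries numbered 37 and 2 for lens and 3 and 29 for collagens. They numbered 24 and 5 for photoreceptors, 8 and 21 for muscle, 5 and 12 for cell cycle and 10 and 6 for heat shock. The shares over all genes tested were 29.9% lower and 31.9% higher. In all, 36 lower and 3 higher genes of the set were in any list.

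The set depends on how alike the injected libraries were required to be. At least 2-fold from WT in both and in the same direction were 215 genes, 140 lower (0.73%) and 75 higher (0.391%), of which 41 were more than 1.5-fold apart between 5MO and 5mRNA. Against WT alone, 5MO was 2-fold higher for 210 genes (1.1%) and lower for 324 (1.69%), and 5mRNA was higher for 204 (1.06%) and lower for 315 (1.64%). These comparisons share the WT library. Between the injected libraries, which share none, 245 genes (1.28%) were 2-fold higher in 5MO and 233 (1.22%) in 5mRNA, and 89% of genes lay within 1.5-fold.

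Values at the edge of the rule were close to those beyond it. *junba* was just inside, barely past 2-fold in 5MO, as was *zgc:64201*, at 1.04 RPKM in WT, 2.19 in 5MO and 2.38 in 5mRNA. *larsa*, at 5.26, 2.27 and 2.58 RPKM, and *diabloa*, at 62.2, 124.2 and 144.7 RPKM, were outside, both just short of 2-fold in 1 library. Without the limit on mean RPKM 720 genes met the folds, of which 174 passed it.

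Some rows of the set lie together on the genome. Within 20 kb of another gene of the set were 10 of the 174 (5.75%), in 5 pairs that were all lower, and 2 of the pairs overlap. Among all genes tested, 1.65% had a gene of the set within that distance. Another gene of the table overlapped the rows of 46 gene symbols of the set, both *fosab* rows included. With these rows left out 127 remained, 79 lower and 48 higher.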

How the data were processed

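Members and gene lists were chosen with earlier results of these data known. The study's larvae were sequenced after preparation with the NEBNext Ultra kit. Per the labels, STAR 2.5.2a and danRer10 were used for alignment. The counting tool is not given in the sources used here. The authors deposited RPKM values per gene (28117 rows) and the aligner's summaries, of which the read numbers and other mapping values were used. The 33 rows that name no gene, with 35.7% to 36.1% of the RPKM sum, were left out.

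Ratios were taken on log2(RPKM + 0.1). Reads behind the values were recovered from the step between values, for 25905 genes, taking in each gene the lowest whole numbers possible. The true number is that or a whole multiple of it, in which case the intervals are too wide. Intervals of the ratio of read shares are 95% Clopper-Pearson. With 1 library per group no count model was used and no test was possible.

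Named were the 15 largest ratios in each direction, up to 4 of the largest and 2 of the highest genes of lists with at least 3 members, the 10 highest levels in each direction, and genes at the limits. Clone-type and locus names were left out by this rule unless among the largest 5. Other genes in the text, clone-type names among them, were chosen after their values were seen. Of 71 genes of the set with clone-type names, 41 matched 1 RefSeq gene and 16 had a descriptive symbol there. Python 3.11.15, numpy 2.4.6, pandas 2.3.3 and scipy 1.17.1 were used, and the procedure was tested on simulated data. Alternatives were pseudocounts of 0.01 and 1, other limits on RPKM, fold and agreement, and 2 scalings. No promoter sequences were used here.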

Additional observations from a re-analysis of the deposited data

Results flagged for a closer look

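A list of 42 cell cycle genes stood on opposite sides of WT in the 2 injected libraries, with a median of log2 0.34 in 5MO and -0.22 in 5mRNA. The limit that singled it out was chosen after the data were seen, and the difference was not tested.

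In 7 genes the injected libraries were each at least 2-fold from WT but in opposite directions, which was not tested. The most abundant, *wu:fi09b08*, was at 34.7 RPKM in WT, 16.3 in 5MO and 96.2 in 5mRNA. *insl5b*, an insulin-like peptide gene, was at 0.960, 0.395 and 2.08 RPKM.

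Of the rows that name no gene, which the comparison did not use, 4 met the rule, 3 of them on the higher side. The row on chromosome 5 from position 55355251 had an injected mean of 2241 RPKM, the row on chromosome 16 from 38399757 a mean of 5676 RPKM, and the row on chromosome 7 from 38894772, which was at 0 in WT, a mean of 3922 RPKM. The row on chromosome 16 from 55167121 was lower, at 4016 RPKM in WT and listed at 0 in both injected libraries.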

How the results depend on the processing

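With a pseudocount of 1 the set had 107 genes, 92 lower and 15 higher, 91 of them shared with the 174. Without the RPKM limit it had 720 (416 lower, 304 higher) and at a mean of at least 5 RPKM 60 (50 and 10). With a stricter limit on agreement it had 123 (70 and 53). At 3-fold the set had 53 (41 and 12) and at 1.5-fold 680 (329 and 351). The other settings stayed within 1.5 times of each count, among them both scalings (172 and 176 genes, with 168 and 172 shared).

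The 2-fold counts for 5MO higher and lower than WT, 5mRNA higher and lower than WT, and 5MO higher and lower than 5mRNA were 47, 166, 50, 166, 75 and 68 with a pseudocount of 1. They were 1108, 1180, 1132, 1100, 1063 and 1155 without the RPKM limit, and 22, 97, 36, 96, 54 and 34 at a mean of at least 5 RPKM. Of the interferon effectors, 1 (*rsad2*) was left at a mean of at least 5 RPKM, and 19 and 18 were 2-fold lower in 5MO alone and in 5mRNA alone. Immediate early rows numbered 18 at 1.5-fold. Fasting and glucocorticoid genes numbered 6 at 1.5-fold, 6 in 5MO alone and 5 in 5mRNA alone.

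None of the 53 genes named by the rule changed direction under any setting run. A pseudocount cannot turn a direction and the scaling factors were 0.992 to 1.008, so this followed from the choice of genes. Of the 53, 38 were still in the set with a pseudocount of 1, 45 with 0.01 and 26 at a mean of at least 5 RPKM. List medians changed sign in 17 of 222 cases, all in lists whose median was within 0.13 of 0. Of 265 values of 53 named genes, 63 moved by more than the gap between the ratios of the injected libraries to WT. Of the list medians, 30 moved by more than the gap between the medians of those libraries. No paired analysis was possible because each group has 1 library and no result comes from a test. Leaving out a library is not possible for WT. Low genes rest on few reads, and the difference between 2 pools of like larvae was not measured.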

Other observations

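Among genes 2-fold higher in both injected libraries but not alike, *bhlha9*, a transcription factor gene of limb development in mammals, was at 1.19 RPKM in WT, 3.16 in 5MO and 6.62 in 5mRNA. *si:ch211-226f24.4* was listed at 0 in WT and at 3.62 and 1.42 RPKM in the injected libraries. Among those 2-fold lower but not alike, *nmrk2*, a gene of NAD synthesis in muscle, was at 126.5, 59.4 and 36.7 RPKM. *cd83*, a marker of activated immune cells, was at 4.12, 0.930 and 0.324 RPKM. These genes were chosen after their values were seen.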
